A study of Mus musculus with 3 samples.

Results

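The NR4A, EGR and TOX genes encode transcription factors that T cells switch on after signals through the T cell receptor. Their 9 members here were Nr4a1, Nr4a2 and Nr4a3 (orphan nuclear receptors), Egr1, Egr2 and Egr3 (zinc-finger factors), Nab2 (a corepressor that binds EGR proteins) and Tox and Tox2 (HMG-box factors). They were chosen by name from the GENCODE M21 gene names, and all 9 were found among 55536 genes, with 40 of 141862 transcripts. RNA with polyA tails was sequenced from regulatory T cells that the labels describe as inflammation-experienced, taken as primary cells from a male mouse aged 6 months of the strain Foxp3CreERT2 x Rosa26YFP. Foxp3CreERT2 places a drug-inducible Cre recombinase under control of Foxp3, and Rosa26YFP is a fluorescent reporter. Per the labels, all 3 libraries come from cells with both alleles. The labels name 1 group, 1 biological replicate and 3 technical replicates, called libraries 1, 2 and 3 here after their numbers, and do not give the inflammatory agent, the Cre inducer, the number of animals pooled or the step at which the replicates were divided. No control group was analysed here, and each p-value below sets differences between these libraries against counting noise, with no measure of the spread between animals.

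The NR4A receptors bind DNA without a known hormone and their transcripts rise within hours of T cell receptor engagement. EGR proteins are induced by the same signals through serum response and MAP kinase pathways, with EGR2 and EGR3 linked to restraint of T cell activation and NAB2 acting as their feedback partner. TOX and TOX2 accompany prolonged stimulation, are induced through the calcium-dependent factor NFAT, and act with NR4A proteins in exhausted T cells.

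Libraries 1, 2 and 3 held 11829362, 14136014 and 10667644 rounded estimated counts on genes, and a count of 0 allowed up to 3 counts, or 0.254, 0.212 and 0.281 CPM (counts scaled to a common library size). Each of the 9 regulatory T cell and T cell identity markers was at 1 TPM (a length-adjusted level) or more in every library, with a summed level of 6377, 6108 and 6565 TPM, and Foxp3 itself averaged 16.1 TPM. The libraries did not differ by counting noise alone. A Poisson chi-square test of equal shares, Benjamini-Hochberg adjusted over the 13970 genes that averaged at least 10 counts, passed 0.05 for 6388 of them, or 45.7%. Markers of other cells also differed: 5 of the 6 erythroid markers passed, all of them highest in library 3, with a summed level of 4.83, 51.2 and 286 TPM in libraries 1, 2 and 3, and 9 B cell markers summed to 22.6, 53.0 and 66.7 TPM.

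All 9 members were detected at 1 TPM or more in each library. Tox was the most abundant at 147 ± 11.3 TPM (SD, n = 3), above 91.7% of the 12470 genes detected in all libraries. Nr4a1 at 53.7 ± 5.81 TPM and Egr2 at 50 ± 4.48 TPM came next, above 77.9% and 76.6% of those genes. Tox2 at 14.0 ± 4.26 TPM, Egr1 at 13.6 ± 2.51 TPM and Nr4a2 at 9.35 ± 2.25 TPM lay in the middle, above 47.3%, 46.6% and 37.8%. Egr3 at 5.55 ± 0.103 TPM, Nab2 at 5.08 ± 0.741 TPM and Nr4a3 at 2.76 ± 0.171 TPM were lowest, above 26.2%, 24.4% and 11.9%. In bulk RNA, fewer cells that make a transcript and less of it in each cell cannot be told apart.

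**Figure D1:**
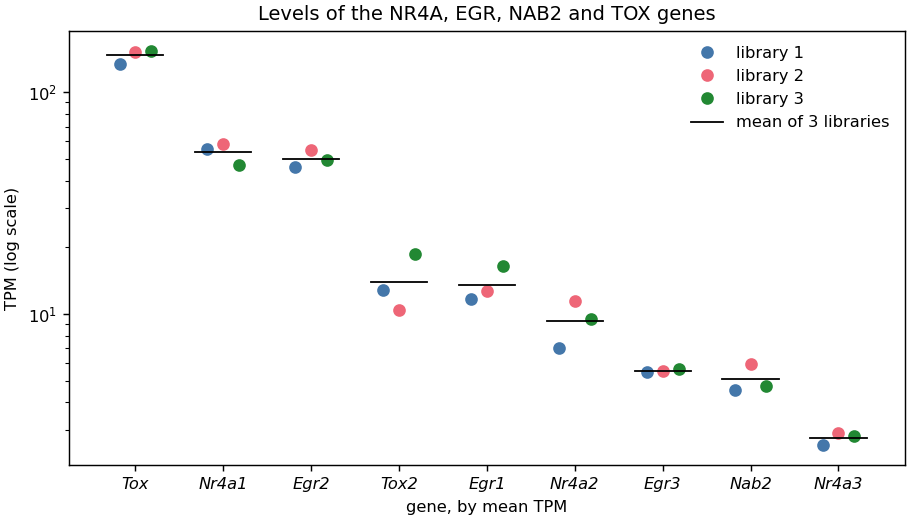
Levels of the 9 genes in TPM (log axis), ordered by mean, with 1 point per library and a line at the mean of 3 libraries. Tox lies highest in every library and Nr4a3 lowest, with Nr4a1 close to Egr2, Tox2 close to Egr1 and Egr3 close to Nab2.

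The order was examined as differences within each library on the log2(TPM + 0.1) scale, which understates differences of low genes. Tox exceeded Nr4a1 by 1.45 ± 0.22 (SD, n = 3). Egr2 exceeded Tox2 by 1.87 ± 0.49, Egr1 exceeded Nr4a2 by 0.55 ± 0.36, Nr4a2 exceeded Egr3 by 0.71 ± 0.35 and Nab2 exceeded Nr4a3 by 0.85 ± 0.14, each with the same sign in 3 of 3 libraries. The other 3 neighbours did not differ beyond their spread: Nr4a1 minus Egr2 was 0.10 ± 0.17, Tox2 minus Egr1 was 0.01 ± 0.25 and Egr3 minus Nab2 was 0.13 ± 0.20. With 3 libraries the exact sign-flip permutation test (two-sided) cannot go below 0.25, so no pair could pass a threshold of 0.05. Over the 8 neighbour pairs the adjusted p of those with one sign in all libraries was 0.40. Within families, Nr4a1 exceeded Nr4a2 by 2.53 ± 0.38 and Nr4a3 by 4.23 ± 0.18, Nr4a2 exceeded Nr4a3 by 1.70 ± 0.27, Egr2 exceeded Egr3 by 3.15 ± 0.13, and Tox exceeded Tox2 by 3.42 ± 0.41 on that scale, each with an exact sign-flip p of 0.25. The family differences kept their sign in the alternatives, but their size moved. In the whole-number table and from coding transcripts alone, Egr2 minus Egr3 was 5.29 and 8.22 and Nr4a1 minus Nr4a3 was 6.66 and 5.17. Tox minus Tox2 was 3.94 and 2.79. Egr3 minus Nab2 turned negative in the whole-number table (-2.27) and from coding transcripts alone (-4.94), and Tox2 minus Egr1 turned negative in 4 alternatives.

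The 3 NR4A genes share sequence in the part that encodes the DNA-binding zinc fingers, so it was asked whether reads could be moved between them. The longest identical stretches between their GENCODE M21 coding sequences are shown because they bear on that question, in capitals with 18 flanking bases at each side in the spliced coding sequence. The stretch shared by Nr4a1 and Nr4a3 has 24 bases and lies at chr15:101270946-101270969 (plus strand, exon 2) and chr4:48052178-48052201 (plus strand, exon 3) in mm10.
Nr4a1: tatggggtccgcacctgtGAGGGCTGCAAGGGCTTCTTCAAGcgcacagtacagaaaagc
Nr4a3: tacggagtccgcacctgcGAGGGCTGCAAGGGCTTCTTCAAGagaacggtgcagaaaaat
That of Nr4a2 and Nr4a3 has 27 bases, at chr2:57110704-57110730 (minus strand, exon 4) and chr4:48055966-48055992 (plus strand, exon 4).
Nr4a2: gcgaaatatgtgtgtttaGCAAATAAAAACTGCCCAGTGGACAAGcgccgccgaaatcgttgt
Nr4a3: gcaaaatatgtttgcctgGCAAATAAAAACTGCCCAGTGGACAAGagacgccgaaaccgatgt
Effective lengths in the deposited tables were 49 bases below the full lengths, which corresponds to 50-base fragments, and no 50-base window of any member occurred in another member. Windows shared with other genes were 0% for Nr4a1 and Nr4a2 and 0.150% for Nr4a3 (9 of 5986).

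Promoters of the NR4A genes are shown because all 3 genes, like Egr2, had their highest counts per library size in library 2. The same held for 7 of the 9 members in all, so it does not set these genes apart. Sequences are from RefSeq (GRCm38.p6), upstream bases only, with matches in capitals: TGACG, the core of the cAMP response element (CGTCA on the other strand), the EGR site GCGGGGGCG, the CArG box and the MEF2 site. The Nr4a1 sequence covers chr15:101266596-101266845 (plus strand) and holds TGACG at 233, 213, 69 and 40 bases before the start and GCGGGGGCG at 60. The GENCODE transcript nearest to this start is Nr4a1-203, listed at 0 TPM in each library.
Nr4a1: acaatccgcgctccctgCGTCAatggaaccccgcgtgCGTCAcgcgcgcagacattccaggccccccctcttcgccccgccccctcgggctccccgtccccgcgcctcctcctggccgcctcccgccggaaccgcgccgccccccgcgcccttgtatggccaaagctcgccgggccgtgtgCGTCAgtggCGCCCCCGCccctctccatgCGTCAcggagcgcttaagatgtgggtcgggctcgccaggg
The Nr4a2 sequence covers chr2:57124004-57124253 (minus strand), with TGACG at 200, 144, 123 and 111 bases before the start and the MEF2 site at 167. The GENCODE transcript nearest to this start is Nr4a2-203, with 16.8%, 6.68% and 25.7% of the gene's TPM in libraries 1, 2 and 3.
Nr4a2: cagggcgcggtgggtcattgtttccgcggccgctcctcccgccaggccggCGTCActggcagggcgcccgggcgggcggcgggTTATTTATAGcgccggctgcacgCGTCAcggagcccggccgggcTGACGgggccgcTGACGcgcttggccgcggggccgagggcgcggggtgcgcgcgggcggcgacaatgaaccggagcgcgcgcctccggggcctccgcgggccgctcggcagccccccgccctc
For Nr4a3, 98 bases at chr4:48045055-48045152 (plus strand) precede the first GENCODE exon, with TGACG at 231, 213 and 205 bases before the RefSeq start.
Nr4a3: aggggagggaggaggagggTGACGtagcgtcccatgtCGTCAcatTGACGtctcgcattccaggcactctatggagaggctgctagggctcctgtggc
Searched on both strands in 32851 windows, each the 250 bases before a start, TGACG occurred in 17.8%, GCGGGGGCG in 2.57%, CArG boxes in 1.47% and MEF2 sites in 2.92%. The full element TGACGTCA, which contains TGACG, occurred in 1.55%, the EGR site GCGTGGGCG in 0.536%, the NR4A element AAAGGTCA in 1.34% and the AP-1 site TGAGTCA in 4.46%, and none of these was in a member's window. The table held 6 of the 9 members, in 14 windows. Of those members, 5 had a TGACG in any of their windows, whereas the 17.8% is a share of single windows. The 5 included Tox2, highest in library 3, and not Nab2, highest in library 2. A link between matches and differences between libraries was not tested. A match describes letters in a window and was not read as binding.

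Nr4a1 (ENSMUSG00000023034.7, chr15:101254269-101274795, plus strand) is induced in proportion to receptor signal strength and is much used as a reporter of it. It stood at 55.5, 58.4 and 47.2 TPM in libraries 1, 2 and 3, from 1187, 1510 and 936 counts. Library 2 was highest and library 3 lowest. After trimmed-mean (TMM) scaling, the CPM of library 2 was 1.28-fold that of library 3, a log2 difference of 0.36 with a counting SE of 0.06, and the chi-square per degree of freedom was 18.2 (adjusted p 1.17e-07). The coding transcript Nr4a1-201 took 90.1%, 92.1% and 91.2% of the gene's TPM.

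Nr4a2 (ENSMUSG00000026826.13, chr2:57106830-57124003, minus strand), a close relative induced alongside Nr4a1, stood at 7.01, 11.5 and 9.55 TPM from 156, 375 and 185 counts. Library 2 was high and library 1 low, with a CPM ratio of 2.05, a log2 difference of 1.03 with a counting SE of 0.14, and an adjusted chi-square p of 2.22e-14. In CPM of the estimated counts this was the largest ratio of the 9 genes, whereas in TPM that of Tox2 was larger (1.79 against 1.64). The transcripts differed more. The coding transcript Nr4a2-201 took 42.1% and 66.7% of the gene's TPM in libraries 1 and 2 but 0.07% in library 3, while Nr4a2-206, annotated as a target of nonsense-mediated decay, took 7.28%, 10.6% and 41.3%. In estimated reads, Nr4a2-201 had 94.0, 295 and 0.19. They share 2948 bases, with 620 only in Nr4a2-201 and 175 only in Nr4a2-206, and neither has a base outside all of the gene's other transcripts. The split between transcripts was not tested.

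Nr4a3 (ENSMUSG00000028341.9, chr4:48045153-48086447, plus strand), the third receptor, stood at 2.57, 2.90 and 2.81 TPM from 66, 115 and 58 counts. Library 2 was highest in both units, while the order of the other libraries changed with the unit. The CPM of library 2 was 1.58-fold that of library 3 (adjusted chi-square p 0.0118), whereas TPM differed by at most 1.13-fold. TPM divides by a length averaged over transcripts, which was 2885, 3682 and 2533 bases. Nr4a3-204, a processed transcript of 895 bases, took 54.6%, 37.5% and 60.8% of TPM from 10.8, 10.04 and 12.0 estimated reads. The coding transcripts Nr4a3-203 and Nr4a3-201 took 30.6%, 34.9% and 39.3%, and 14.8%, 27.6% and 0%.

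**Figure D2:**
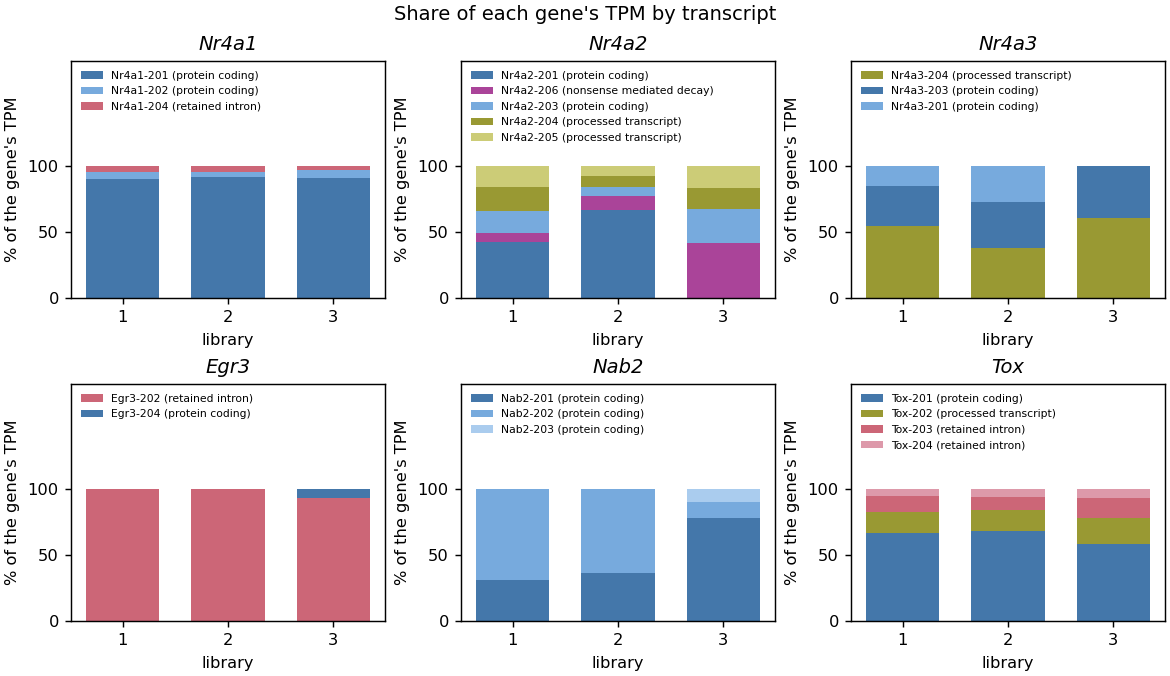
Percent of each gene's TPM assigned to each transcript in libraries 1, 2 and 3, for 6 genes, with colours by annotated biotype (blue coding, red retained intron, purple nonsense-mediated decay, olive processed). Nr4a1-201 took over 90% in every library, Egr3-202 at least 93.5%, and the leading Nr4a2 and Nab2 transcripts changed in library 3. These splits were not tested.

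Among the EGR genes, the promoter of Egr2 is shown because Egr2 is the most abundant of them, with the same motifs in capitals. The Egr2 promoter at the start of Egr2-201, chr10:67537619-67537868 (plus strand, RefSeq GRCm38.p6), holds TGACG at 111 and 55 bases before the start and a CArG box, the site that serum response factor binds, at 72.
Egr2: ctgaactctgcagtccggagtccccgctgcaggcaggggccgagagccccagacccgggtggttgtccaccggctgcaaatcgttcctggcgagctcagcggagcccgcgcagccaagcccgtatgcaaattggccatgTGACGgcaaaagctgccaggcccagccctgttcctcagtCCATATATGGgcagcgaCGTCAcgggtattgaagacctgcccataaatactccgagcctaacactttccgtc

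Egr2 (ENSMUSG00000037868.15, chr10:67535475-67542188, plus strand), linked to anergy and to restraint of T cell activation, stood at 45.9, 54.8 and 49.4 TPM from 947, 1317 and 887 counts. Library 2 was highest and the others lay close together. The CPM ratio of highest to lowest was 1.19, with an adjusted chi-square p of 9.89e-05. Egr2-201 took 61.4%, 63.2% and 67.6% of the TPM and Egr2-204 took 24.5%, 27.5% and 29.3%, both coding. Egr2-204 had 38.4, 62.15 and 45.4 estimated reads, and all 427 of its bases lie in Egr2-201. The split between transcripts was not tested.

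Egr3 (ENSMUSG00000033730.4, chr14:70077203-70082614, plus strand), which overlaps in function with Egr2, stood at 5.46, 5.52 and 5.66 TPM from 189, 231 and 180 counts. The libraries lay within counting noise, with a chi-square per degree of freedom of 0.0876 and an adjusted p of 0.936, and it alone of the 9 members did not pass. All of its TPM in libraries 1 and 2, and 93.5% in library 3, went to Egr3-202, a single-exon transcript of 3876 bases annotated as a retained intron. Of these bases, 3655 also lie in the coding transcripts, 1007 of them in coding sequence, and 221 are its own. Coding transcripts of Egr3 were listed at 0, 0 and 0.37 TPM. The split between transcripts was not tested.

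Egr1 (ENSMUSG00000038418.7, chr18:34859823-34864984, plus strand), the most rapidly induced of the family, stood at 11.7, 12.7 and 16.4 TPM from 322, 422 and 414 counts. Library 3 was highest and library 1 lowest, with a CPM ratio of 1.38 and an adjusted chi-square p of 0.000240. Within libraries Egr1 lay below Egr2 by 1.88 ± 0.27 and above Egr3 by 1.26 ± 0.23 (SD, n = 3) on the log2(TPM + 0.1) scale. Egr1-202 took 95.8%, 95.7% and 96.7% of its TPM.

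Nab2 (ENSMUSG00000025402.12, chr10:127660918-127668568, minus strand), the EGR corepressor, stood at 4.57, 5.93 and 4.74 TPM from 97, 153 and 90 counts. Library 2 was highest and the others were close. The CPM ratio was 1.35 with an adjusted chi-square p of 0.0493, and the call was lost under each of the 9 alternatives, with p between 0.0521 and 0.999994. Egr2 exceeded Nab2 by 3.28 ± 0.09 (SD, n = 3) on the log2(TPM + 0.1) scale, a steady difference in 3 of 3 libraries. Coding transcript Nab2-202 took 68.9%, 63.7% and 11.6% of TPM and Nab2-201 took 31.1%, 36.3% and 78.5%. All 2311 bases of Nab2-202 lie in Nab2-201, and in library 3 they had 10.3 and 78.3 estimated reads. The split between transcripts was not tested. Nab2 exons overlap those of Stat6 on the other strand by 40 bases, with Stat6 at 123 ± 4.65 TPM. They overlap the antisense gene Gm16229 by 1050 bases, at 0.06 ± 0.104 TPM, and Nemp1 by 151, at 5.21 ± 0.594 TPM. Of its 50-base windows, 1027 of 2940 (34.9%) occur in other genes, among them Gm16229 and Nemp1 but not Stat6. With no strand setting given, reads of overlapping genes cannot be told apart.

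Tox (ENSMUSG00000041272.11, chr4:6686353-6991557, minus strand), which programs exhausted T cells, had 133.5, 152.5 and 153.6 TPM from 3724, 5214 and 3696 counts. Library 1 was low in both units. Library 2 was highest in CPM, 1.19-fold above library 1 (adjusted chi-square p 3.33e-15), and library 3 was highest in TPM by a small margin. The coding transcript Tox-201 took 66.5%, 68.3% and 58.7% of TPM, the processed Tox-202 took 16.3%, 15.6% and 19.2%, and retained-intron transcripts the rest. Tox coding transcripts alone therefore summed to 88.8, 104.2 and 90.1 TPM, still the highest of the 9 genes. The antisense gene Gm11802 overlaps its exons by 260 bases at 0.547 ± 0.472 TPM, and 2.83% of its 50-base windows (214 of 7560) occur in other genes.

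Tox2 (ENSMUSG00000074607.11, chr2:163203125-163324170, plus strand), a relative of Tox with a closely related HMG box, stood at 12.8, 10.4 and 18.7 TPM from 297, 304 and 371 counts. Library 3 was highest and library 2 lowest, with a CPM ratio of 1.53 and an adjusted chi-square p of 6.27e-07. Tox2-202 took 85.9%, 89.4% and 78.4% of TPM and Tox2-204 took 14.1%, 9.37% and 21.6%, both coding. Tox2-204 had 8.97, 5.88 and 18.5 estimated reads, and all 600 of its bases lie in Tox2-202. The split between transcripts was not tested.

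**Figure D3:**
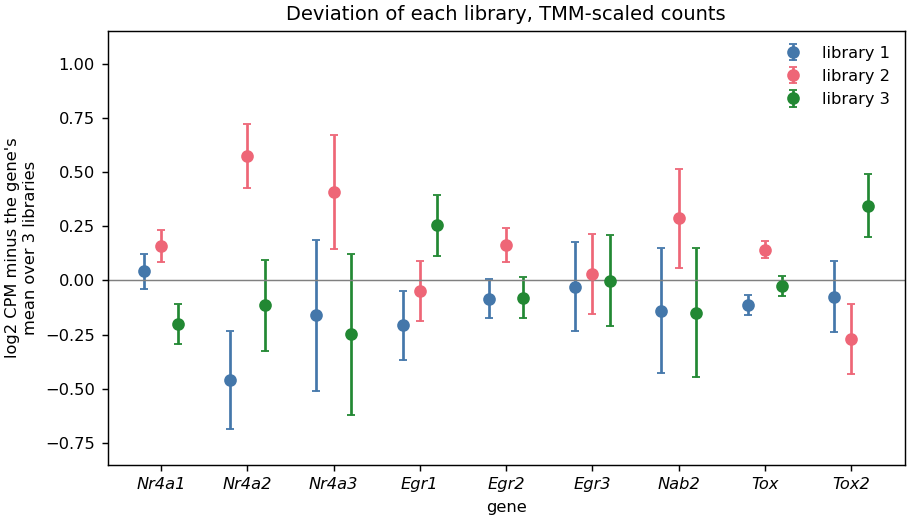
Log2 CPM of each library minus the gene's mean over 3 libraries, after TMM scaling, for the 9 genes, with bars for 95% counting intervals. Library 2 lies highest for Nr4a1, Nr4a2, Nr4a3, Egr2, Nab2 and Tox, library 3 for Egr1 and Tox2, and the bars of Egr3 overlap.

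Across the members, 8 of 9 passed the test against 45.7% of all genes. Of these, 6 were highest in library 2 (Nr4a1, Nr4a2, Nr4a3, Egr2, Nab2 and Tox), where 15.5% of all genes were called and highest. Another 2 (Egr1 and Tox2) were highest in library 3, where 16.2% were, and 0 in library 1, where 14% were. Among only the 6388 genes that passed, 1959, 2165 and 2264 were highest in libraries 1, 2 and 3. The median chi-square per degree of freedom was 10.9 over the members and 3.28 over all genes, and the median ratio of highest to lowest CPM was 1.35 and 1.26. The members' CPM ratios ran from 1.04 for Egr3 to 2.05 for Nr4a2. The test calls smaller ratios where counts are higher. Tox passed at 1.19-fold from 3696 to 5214 counts (adjusted chi-square p 3.33e-15), and Nr4a3 at 1.58-fold from 58 to 115 (0.0118). The shares of all genes were not matched for count, so part of the excess over them can come from depth. The summed level of NK cell markers was also highest in library 2, at 10.8, 54.8 and 18.9 TPM. That of monocyte and macrophage markers was too, at 18.4, 71.8 and 37.6 TPM. All 5 NK markers tested passed, 4 of them highest in library 2 and 1 in library 3. Of 6 monocyte and macrophage markers tested, 5 passed, each highest in library 2. Of those lists, 2 of 7 and 3 of 9 genes were at 1 TPM or more in each library, the defining NK marker Ncr1 was at 0.47, 0.26 and 0.17 TPM, the myeloid marker Lyz2 at 1.45, 31.9 and 11.7 TPM, and their part in the result was not tested.

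**Figure D4:**
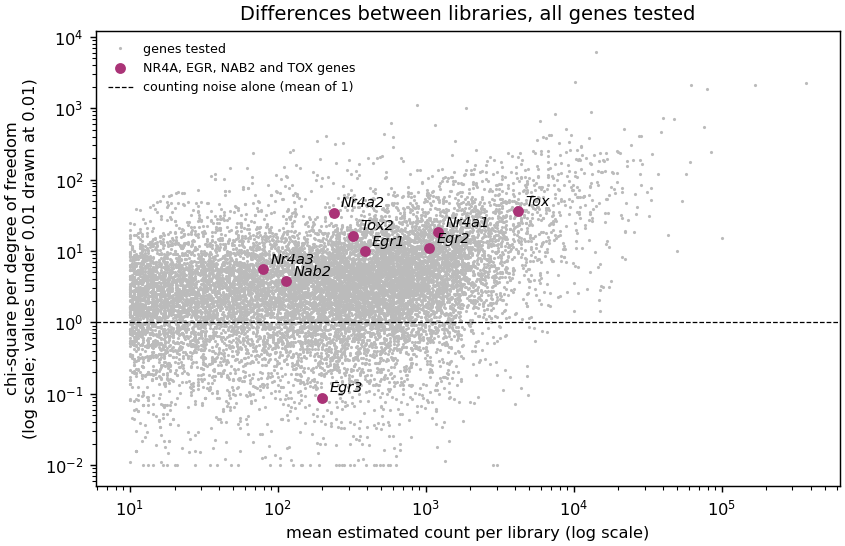
Chi-square per degree of freedom against mean estimated count per library (both log axes) for 13970 genes in grey and the 9 genes in purple, with a dashed line at 1 for counting noise. The members run from Egr3 at 0.0876 to Tox at 36.4, which ranked 673 among all genes tested, so the grey points reach far above them.

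The result depended on how much spread between libraries the test allows. A common dispersion, a coefficient of variation of 16.9% between these technical replicates, was estimated by edgeR over all genes tested. It came from the same 3 libraries taken as 1 group, so it takes in the differences under test and calls must fall. With it added to the chi-square test, 0 of 9 members passed, against 3.29% of all genes. Only 1 of 9, Nr4a2, had an unadjusted p under 0.05 in that test (adjusted p 0.255). Without library 2, 4 of 9 passed, against 30.7% of all genes, with p of 0.0794 for Nr4a2, 0.834 for Nr4a3, 0.977 for Egr2 and 0.979 for Nab2. Without library 3, 4 of 9 passed, against 21.3% of all genes, with p of 0.130 for Nr4a1, 0.305 for Egr1, 0.0873 for Nab2 and 0.231 for Tox2.

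A second deposited table of whole-number counts, on the older GENCODE M4 release, was set beside the first. It held 664, 848 and 531 counts for Nr4a1, 67, 170 and 83 for Nr4a2, 330, 477 and 308 for Egr2 and 98, 84 and 106 for Tox2. These kept the highest library, and these 4 of 8 members tested passed the same chi-square test (adjusted p 0.000252, 4.17e-07, 0.00634 and 0.0442), where 21.6% of all genes did. Egr1 (115, 131 and 126 counts) and Tox (1423, 1674 and 1333) did not, with adjusted p of 0.506 and 0.874. Nab2 (41, 56 and 39) and Egr3 (14, 13 and 4) had adjusted p of 0.778 and 0.224, and Nr4a3 (7, 17 and 2) had too few counts to test. The whole-number count was a median of 40.7% of the estimated count over 11374 genes, against 56.2% for Nr4a1 and 35.1% for Tox. It was 5.17% for Egr3, with 6.46% of genes lower, and 10.9% for Nr4a3, with 11.4% lower.

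**Figure D5:**
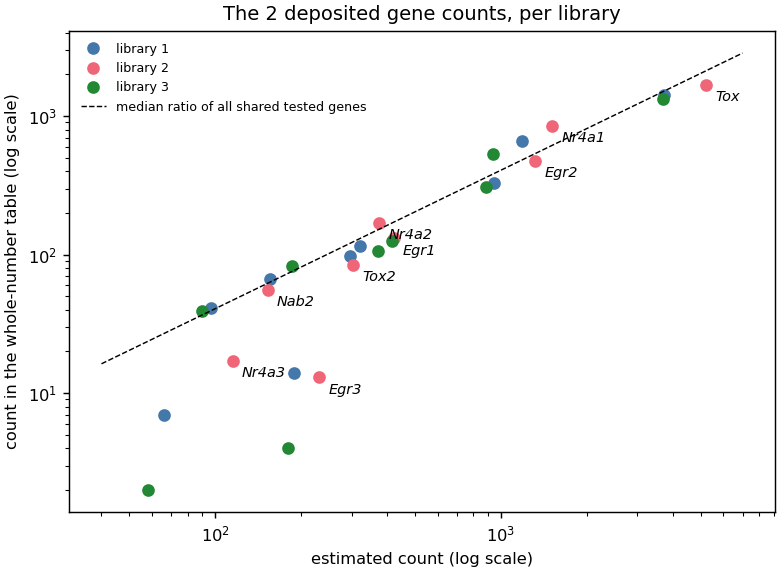
Count in the whole-number table against the estimated count (both log axes) for the 9 genes in each library, with a dashed line at the median ratio of shared tested genes. Egr3 and Nr4a3 lie well below the line, and Nr4a1 lies above it.

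Other genes of the pathway came from lists, whose counts below stand against the 45.7% of all genes that passed. Of those 6388 genes, 1959, 2165 and 2264 were highest in libraries 1, 2 and 3 (14%, 15.5% and 16.2% of all genes tested). Those shares were not matched for count either. Adding the common dispersion, with which 3.29% of all genes passed, ended most of the calls in the lists. That dispersion was estimated from these same libraries and takes in their differences. Of 50 further genes induced by T cell receptor signals, 46 were detected and 38 passed the test (2 with the common dispersion), with 3, 18 and 17 of those 38 highest in libraries 1, 2 and 3. Tnfrsf4 (OX40) stood at 657 ± 123 TPM (SD, n = 3), Icos at 351 ± 57.7, the phosphatase Ptpn22 at 316 ± 22.5 and nucleolin (Ncl) at 291 ± 7.22. Cd83, an activation marker, was high in library 3 at 83.6, 91.6 and 159 TPM. Libraries 2 and 3 thus held nearly equal numbers of the called genes.

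Among 8 relatives and partners, 4 were detected. Nab1, the other EGR corepressor, stood at 25.7 ± 4.56 TPM, above Nab2, and was highest in library 2. Tox4 stood at 60.5 ± 5.35 TPM, and Rxra and Rxrb, retinoid receptors that pair with NR4A1 and NR4A2, at 8.14 ± 2.13 and 7.04 ± 0.851 TPM. Egr4 and Rxrg were at 0 in all libraries, and Tox3 and Wt1 averaged 0.143 and 0.0133 TPM. Of these, 3 of the 4 tested passed (Nab1, Tox4 and Rxra). With the common dispersion added to the chi-square, 0 of 4 did, and 0 had an unadjusted p under 0.05.

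Of 20 anergy and feedback genes linked to EGR2 and EGR3, 13 passed, against 45.7% of all genes, and 2 with the common dispersion. Dgka and Dgkz, kinases that dampen receptor signals, stood at 149 ± 9.42 and 66.4 ± 9.14 TPM. Tnfrsf9 (4-1BB) at 118 ± 6.90 TPM and Id3 at 103 ± 3.64 TPM did not pass, with adjusted chi-square p of 0.128 and 0.905. Crtam was at 4.30, 16.9 and 5.81 TPM and Nrgn at 2.77, 17.0 and 2.44 TPM, both high in library 2, as Nr4a2 was. A list of co-inhibitory receptors, which NR4A and TOX factors are known to raise, and related surface molecules held 12 genes. Of these, 11 passed, against 45.7% of all genes. Library 2 was highest for 7 of the 11, and for 2165 of all 6388 genes that passed. With the common dispersion added to the chi-square, 0 of 12 passed and 1 had an unadjusted p under 0.05. Tigit stood at 685 ± 25.3 TPM, Pdcd1 (PD-1) at 282 ± 2.97, Ctla4 at 124 ± 25.3 and Cd200 at 68.1 ± 13.6. Havcr2 (TIM-3) was at 32.0, 37.4 and 24.0 TPM, whereas Ctla4 was lowest in library 2 at 146, 96.4 and 130 TPM.

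Of 23 genes matched for the factors and kinases that act on these promoters, 15 passed, against 45.7% of all genes, and 1 with the common dispersion. Nfatc1 stood at 80.7 ± 6.06 TPM, the kinase Prkcq at 71.3 ± 2.56, and the cAMP-response factors Crem and Creb1 at 61.4 ± 5.74 and 50.9 ± 0.235. Mef2c was at 0.52, 3.62 and 3.88 TPM. Early-response and heat shock genes, a class sensitive to cell isolation, passed for 19 of 22 (3 with the common dispersion) against 45.7% of all genes. Of the 19, 7, 3 and 9 were highest in libraries 1, 2 and 3, against 1959, 2165 and 2264 of the 6388 genes that passed. Hspa8 stood at 2623 ± 347 TPM, Dnaja1 at 453 ± 61.1 and Hsp90aa1 at 221 ± 20.7, all highest in library 1. Nfkbia stood at 447 ± 63.8 TPM and Ppp1r15a at 27.0, 24.2 and 59.1 TPM, both highest in library 3 as Egr1 was.

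Profiles over the 3 libraries were compared with those of 119 genes in these lists, as the largest difference in centred log2 CPM. Nr4a1 was nearest to Klf2 (0.0044) and Ubash3b (0.043), and Nr4a2 to Fasl (0.10) and Cd160 (0.17). Nr4a3 was nearest to Entpd1 (0.089) and Dusp5 (0.11), and Nab2 to the same 2 genes, Dusp5 (0.0053) and Entpd1 (0.051). Egr1 was nearest to Nfkbiz (0.018) and Cd69 (0.043), and Egr2 to Nfatc2 (0.031) and Nab1 (0.031). Tox was nearest to Hdac7 (0.023) and Ptpn22 (0.027), and Tox2 to Zfp36 (0.11) and Tnfrsf4 (0.12). With only 3 libraries such nearness is a description. Fasl stood at 25.3, 44.8 and 33.6 TPM, following the order of Nr4a2 in each library.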

How the data were processed

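Estimated counts and TPM per gene and per transcript, with the percent of a gene's TPM taken by each transcript and a posterior SD of the count (a signal in reads), were deposited in RSEM's table layout, per the file headers, on mm10 and GENCODE M21. The authors made TPM from counts and effective lengths. Whole-number counts per gene were deposited on GENCODE M4. The aligner, tool versions, counting tool and strand setting were not given in the sources used here.

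Estimated counts were rounded. A quasi-likelihood fit compares groups and so had no use with 1 group. Libraries were compared by a Poisson chi-square test with TMM library sizes (edgeR 4.0.16, R 4.3.3) for genes that averaged at least 10 counts, Benjamini-Hochberg adjusted over all genes at 0.05, using scipy 1.17.1. The test was checked on simulated Poisson counts only. These hold no spread beyond counting noise, unlike the libraries here, so the check does not cover that spread. Alternatives were DESeq2 1.42.0 size factors, totals, no count filter, the posterior variance, a common dispersion, the whole-number table and leaving out each library. Counting errors take reads as independent and leave out duplicates made by PCR.

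The members and lists were chosen with earlier results of these data known. Named genes are all members, the 4 most abundant and the 2 with the largest chi-square of each list, all relatives, and the 2 nearest profiles of each member that passed the test. Defining markers (Foxp3, Ncr1 and Lyz2) and genes that overlap a member are named besides. Mkl1 and Cyr61 had no match by symbol. A comparison of shared coding sequence between EGR genes is not reported here.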

Additional observations from a re-analysis of the deposited data

How the results depend on the processing

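DESeq2 size factors, total counts, no filter and the posterior variance each left 7 of 9 members past the threshold, with Nab2 lost. With the common dispersion, counts fell to 0 members, 460 of all genes, 2 of 50 receptor-induced genes, 0 relatives, 2 EGR-linked, 0 co-inhibitory, 1 upstream and 3 isolation genes. The whole-number table gave 4 members, 2155 of all genes, and 14 receptor-induced, 6 EGR-linked, 7 co-inhibitory, 4 upstream and 9 isolation genes. Leaving out 1 library gave 4 to 7 members, 2978 to 4765 of all genes, 22 to 33 receptor-induced, 7 to 11 EGR-linked, 7 to 8 co-inhibitory, 8 to 11 upstream and 9 to 15 isolation genes; the cause was not tested. Of 112 alternative values of the pair differences, 106 kept their sign and 6 reversed. Tox2 minus Egr1 was -0.25 in CPM, -0.37 in the whole-number table and -0.0736 to 0.157 with 1 library left out. Egr3 minus Nab2 was -2.27 in the whole-number table and -4.94 from coding transcripts alone. Taken from estimated counts instead of TPM, which weights long transcripts more, shares were 93.2% for Nr4a1-201, 15.2% for Nr4a3-204, 94.3% for Egr1-202, 84.5% for Egr2-201, 83.0% for Tox-201 and 96.4% for Tox2-202. No paired analysis was possible because there is 1 group. Depth limits Nr4a3 and Nab2 most, with 58 to 153 counts a library.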
